A study of Mus musculus with 9 samples.

Results

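The T-box genes encode transcription factors that share a DNA-binding domain, the T-box. The 9 examined here, taken by symbol from a table of 24736 genes, were T, Tbx6, Eomes, Tbx1, Tbx2, Tbx3, Tbx4, Tbx5 and Tbx20. Their messenger RNA was measured in 9 mouse RNA-seq libraries from caudal epiblast-like cells (CEpiLCs), the cultured counterpart of the posterior epiblast beside the primitive streak, from which trunk mesoderm and spinal cord arise. Of the 9 genes, 8 were detected, with over 3 counts in at least 3 libraries, and 6 had a mean of at least 10 normalised counts.

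T (Brachyury) is the founding member of the family and is induced by WNT signalling in the primitive streak, where it is needed to make posterior mesoderm. Tbx6 directs cells of the streak to paraxial mesoderm, the tissue that segments into somites, and Eomes acts earlier and more anteriorly, in cardiac and other anterior mesoderm and in definitive endoderm. The other members are best known later in development, Tbx1 in the pharynx, Tbx2, Tbx3, Tbx5 and Tbx20 in the heart, and Tbx4 and Tbx5 in the hindlimb and forelimb, while Tbx3 is also expressed in naive pluripotent cells.

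All 3 groups were mouse embryonic stem cells kept in medium with 10 ng/ml bFGF and 5 uM LGK974, which blocks WNT secretion, then exposed from day 2 to CHIR99021, a GSK3 inhibitor that turns on WNT signalling, and collected at 72 h. They were wild-type cells (WT), cells lacking Cdx1, Cdx2 and Cdx4 (CdxKO, labelled Cdx1/2/4-/-) and cells lacking T (T/BraKO, labelled T/Bra-/-), with 3 libraries each, labelled as biological replicates and numbered 1 to 3. The alleles are not given in the sources used here, and no second line of a genotype is named. The groups also differed outside the mutated genes: Hprt averaged 21.7 normalised counts in WT, 22.4 in CdxKO, with 3938 in T/BraKO, and Y-linked Ddx3y averaged 1727, 0 and 2397. A difference between genotypes and a difference between lines therefore cannot be told apart. The caudal epiblast markers were present, 12 of 12 at a mean of at least 1 TPM in WT, and their sum ran from 1174 to 1493 TPM there, 754 to 1239 in CdxKO (10 of 12) and 944 to 1434 in T/BraKO (12 of 12). The list holds the mutated genes T, Cdx1, Cdx2 and Cdx4. The other 8 genes summed to 875, 657 and 762 TPM in the WT libraries, 617, 492 and 519 in CdxKO and 1085, 699 and 986 in T/BraKO. These sums were highest in T/BraKO and lowest in CdxKO within each number. From WT to T/BraKO the means of Nkx1-2 (274 to 367 TPM), Wnt8a (224 to 242), Sp5 (108 to 171), Evx1 (15.8 to 24.4) and Hoxb9 (53.2 to 73.4) were higher. Fgf8 (50.8 to 16.7) and Wnt3a (18.6 to 8) were lower, and Sox2 was at 20.3 and 20.7. Nkx1-2, Sp5, Evx1 and Hoxb9 were higher in T/BraKO than in WT within each number. Wnt8a was lower in T/BraKO library 2 (179 against 223 TPM), and Hoxb9 ran from 5.49 to 108 TPM among the WT libraries. Fibroblast markers, which feeder cells express, summed to 57 to 124 TPM in WT, 72.6 to 152 in CdxKO and 49.1 to 96.5 in T/BraKO. Libraries held 25124344 to 34705361 counts, so that 3 counts corresponded to 0.0864 to 0.119 CPM.

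The promoters of T, Tbx6 and Eomes are shown because these 3 genes carry the differences described below. Each line gives the 250 bases before the start of the gene, from RefSeq on GRCm38.p6, read 5′ to 3′ on the gene's strand. Capitals mark matches, on either strand, to the T-box core AGGTGT, the TCF/LEF core CTTTGA (the DNA-binding partners of β-catenin) and the CDX core TTTATG.
T, chr17:8434173-8434422, plus strand: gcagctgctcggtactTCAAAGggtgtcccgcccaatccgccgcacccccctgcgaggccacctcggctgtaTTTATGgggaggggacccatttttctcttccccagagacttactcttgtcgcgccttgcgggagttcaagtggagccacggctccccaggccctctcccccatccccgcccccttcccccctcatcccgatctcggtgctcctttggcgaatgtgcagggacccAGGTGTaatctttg
Tbx6, chr7:126781233-126781482, plus strand: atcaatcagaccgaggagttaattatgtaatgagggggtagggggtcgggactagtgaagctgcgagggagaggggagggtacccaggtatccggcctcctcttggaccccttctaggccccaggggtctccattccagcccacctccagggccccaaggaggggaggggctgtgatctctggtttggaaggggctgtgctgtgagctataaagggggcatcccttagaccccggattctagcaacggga
Eomes, chr9:118477939-118478188, plus strand: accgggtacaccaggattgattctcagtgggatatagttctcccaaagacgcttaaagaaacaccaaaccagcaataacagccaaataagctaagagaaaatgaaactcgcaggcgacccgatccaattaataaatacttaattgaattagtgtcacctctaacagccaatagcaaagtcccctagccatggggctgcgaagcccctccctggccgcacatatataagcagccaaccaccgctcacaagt
The T window held 1 match to each of the 3 motifs. Its T-box match began 14 bases before the start, its CDX match 178 bases before, and its TCF/LEF match, read as TCAAAG on the opposite strand, 234 bases before. The Tbx6 and Eomes windows held no match to any of the 3. Of 32851 promoter windows of this length, 11.8% held the T-box core, 13.8% the TCF/LEF core and 10.8% the CDX core, and the matches are a description of letters, not of binding. A promoter entry existed for 6 of the 9 genes, and of the other 3 of these, Tbx1, Tbx4 and Tbx20, only Tbx1 had a T-box match, at 76 bases before a start.

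T was the most abundant T-box gene in every library. On the TPM scale, which corrects read counts for gene length and depth, WT levels averaged 431 for T, 7.73 for Tbx6 and 5.72 for Eomes. Tbx4 at 0.653, Tbx3 at 0.553 and Tbx20 at 0.253 formed a lower tier, and Tbx2 at 0.12, Tbx1 at 0.117 and Tbx5 at 0.0367 were close to the detection limit. The WT ranges of Tbx6 and Eomes overlapped, as did those of Tbx4 and Tbx3, of Tbx2 and Tbx1, and of Tbx1 and Tbx5, so that these neighbours did not differ beyond their spread. In CdxKO the first 3 places were the same, with mean levels of 467, 6.78 and 5.78 TPM. In T/BraKO the order changed: T at 78.9 TPM was followed by Eomes at 12.7, with no overlap between them, and Tbx6 at 0.707 TPM lay in the range of Tbx3 at 0.817 and Tbx4 at 0.497.

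Of the summed TPM of the 9 genes, T made up 95.7%, 97% and 97% in the WT libraries 1, 2 and 3. Its share was 96.2%, 96.4% and 97.7% in CdxKO, and 85.1%, 85.3% and 81.8% in T/BraKO. The share of Eomes was 1.04%, 0.786% and 1.85% in WT and 11.8%, 10.7% and 16.6% in T/BraKO. The sum itself was 404, 409 and 526 TPM in WT and 71.7, 90.4 and 120 in T/BraKO. The larger share of Eomes therefore came largely with the smaller sum, since its mean level went only from 5.72 to 12.7 TPM. T transcript therefore remained the main T-box transcript in the T/BraKO libraries.

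**Figure D1:**
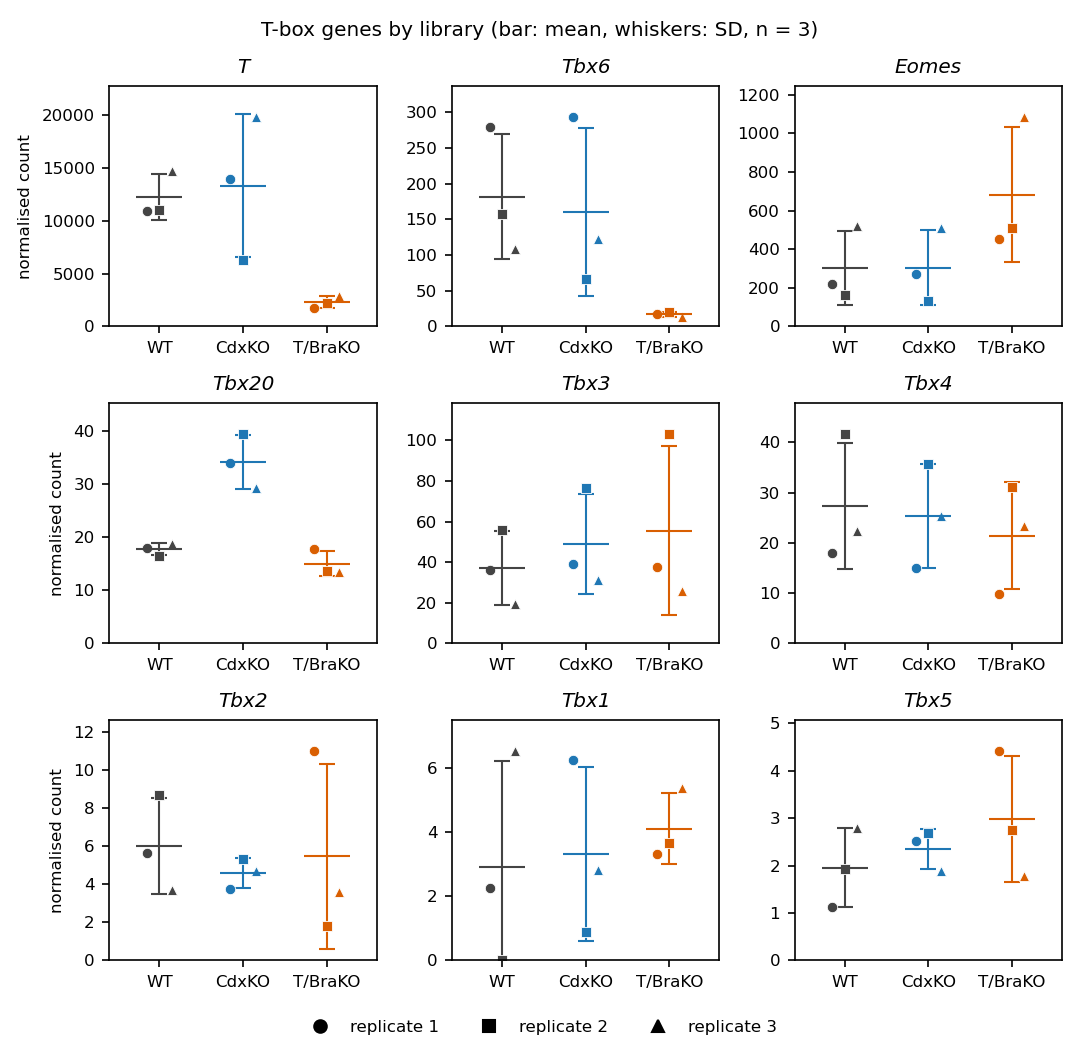
Normalised counts (y axis, a separate linear scale in each panel) of the 9 T-box genes in the 3 genotypes (x axis). Each point is 1 library, its shape gives the replicate number, and the bar and whiskers give mean and SD. T and Tbx6 in T/BraKO lie below every WT and CdxKO library, and Tbx20 in CdxKO lies above every other library, while Tbx3 and Tbx4 follow the replicate number.

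The comparison of T/BraKO with WT shows which T-box genes were at other levels in the T/BraKO line, and T itself comes first. T (chr17:8434423-8442496, plus strand, mm10) was counted at 10900, 11070 and 14760 normalised reads in WT and at 1777, 2214 and 2894 in T/BraKO. The T/BraKO libraries were all far below the WT libraries, but none was empty, and their mean was 18.7% of the WT mean. The mean fell from 12243 ± 2181 to 2295 ± 563 (SD, n = 3), or -2.42 on the log2 scale (SE 0.34, adjusted p = 7.83e-10 by DESeq2's Wald test with Benjamini-Hochberg adjustment). The ratio of T/BraKO to the WT library of the same number was 0.163, 0.2 and 0.196. A gene count does not show whether the remaining transcript can encode protein, and which part of T the allele lacks is not given in the sources used here. In bulk libraries such as these, fewer cells expressing a gene and less of its RNA per cell cannot be told apart.

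Tbx6 (chr7:126781483-126785560, plus strand) had the largest fold difference between T/BraKO and WT among the 6 genes with a mean of at least 10 counts. It was at 279, 158 and 109 normalised counts in WT and at 17.7, 20.2 and 13.5 in T/BraKO. The lowest WT library was above all T/BraKO libraries. The mean fell from 182 ± 87.5 to 17.1 ± 3.38 (SD, n = 3), or -3.41 on the log2 scale (SE 0.55, DESeq2 adjusted p = 2.05e-07), and 9.39% of the WT mean was left. The 3 T/BraKO libraries were within 1.5-fold of each other, whereas the highest WT library was 2.56 times the lowest. By edgeR's quasi-likelihood test, which called 0.385% of all genes, T had an adjusted p of 0.031 and Tbx6 one of 0.0591, and with a term for the replicate number the value for Tbx6 was 0.000864. Groups that do not overlap, with T/BraKO lower as for T and Tbx6, were found for 5.54% of all genes tested.

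Same-numbered libraries of the 3 genotypes deviated together from their group means, so the fit was repeated with the replicate number as a block, which compares genotypes within a number. The call for Eomes (chr9:118478212-118486132, plus strand) turned on this. Eomes was at 218, 165 and 520 normalised counts in WT and at 455, 511 and 1083 in T/BraKO. The groups overlapped, since WT library 3 was above T/BraKO libraries 1 and 2, but within each number the T/BraKO library was higher, by ratios of 2.08, 3.09 and 2.08. The mean of T/BraKO was 227% of the WT mean (683 ± 348 against 301 ± 191, SD, n = 3). Without the block the log2 fold change was 1.18 (SE 0.67, DESeq2 adjusted p = 1). With it the change was 1.26 (SE 0.17, 95% interval 0.92 to 1.59, DESeq2 adjusted p = 2.81e-11), and edgeR gave adjusted p values of 0.893 without and 0.00315 with the block, where it called 9.5% of all genes. Without WT library 3, the unblocked DESeq2 fit also called Eomes higher, at 1.83 with an adjusted p of 0.0317. The other 8 fits that left out 1 library did not call it, and without T/BraKO library 3 the estimate was 0.68 (adjusted p = 1). The summed epiblast markers, all 6 of them at a mean of at least 1 TPM in each group, were at 906, 1037 and 1500 TPM in the WT libraries, 1148, 1064 and 1603 in CdxKO and 1295, 1482 and 1920 in T/BraKO. Like Eomes, these sums were higher in T/BraKO than in WT within each number and highest in library 3 of each genotype. Pou5f1, at a mean of 880 TPM in WT and 1241 in T/BraKO, made up most of them. Fgf5 and Dnmt3b also followed this pattern. Utf1 was lower in T/BraKO library 1 (24.6 against 26.1 TPM), Sox3 in library 2 (20.3 against 21.8) and Otx2 in library 3 (13.4 against 13.6). In CdxKO the summed epiblast markers were also above WT within each number. Eomes in CdxKO was at ratios of 1.25, 0.794 and 0.982 to the WT library of the same number. The part of the epiblast markers in the level of Eomes was not tested.

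In the unblocked fit, 2 of the 9 genes were called in T/BraKO against WT, both lower, where 0.937% of all genes tested were called lower and 1.08% in either direction. With the block, 3 of the 4 members that kept an adjusted p were called, T and Tbx6 lower and Eomes higher, where 9.68% of all genes tested were called. Tbx20, Tbx3 and Tbx4 passed no test in this comparison.

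**Figure D2:**
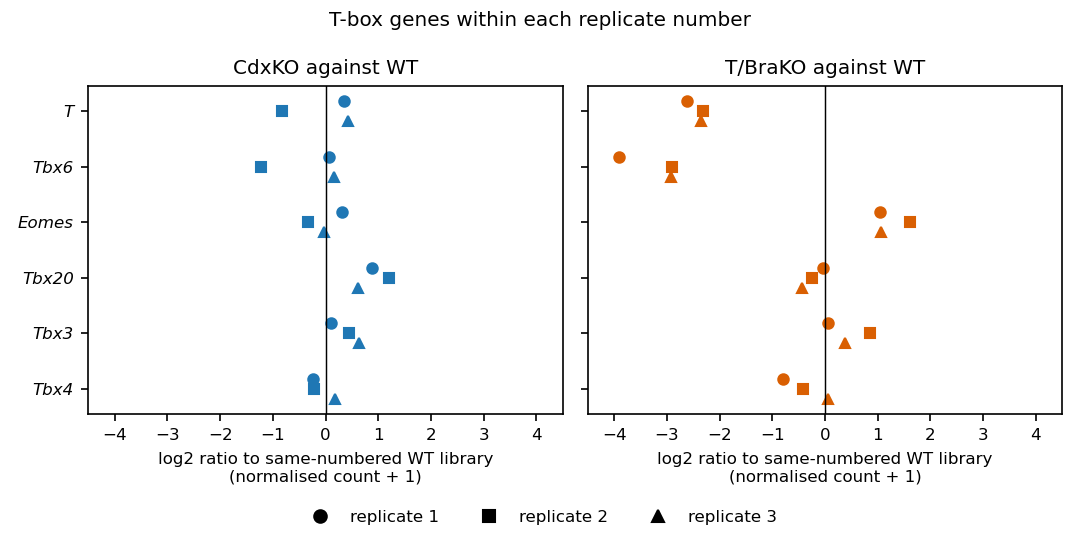
Log2 ratio (x axis) of each mutant library to the WT library with the same replicate number, on normalised counts plus 1, for the 6 T-box genes with a mean of at least 10 counts (y axis). Left, CdxKO; right, T/BraKO; 1 point per library. In T/BraKO the 3 points of T and Tbx6 lie left of 0 and those of Eomes lie right of it, while in CdxKO the points of T, Tbx6 and Eomes fall on both sides and those of Tbx20 lie right of 0.

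The balance between the 3 genes, as ratios of TPM within a library, set T/BraKO apart in each number. T exceeded Eomes by ratios of 92.2, 123 and 52.3 in WT and 94, 88.3 and 71.5 in CdxKO, but by 7.21, 7.99 and 4.93 in T/BraKO. The ratio of Eomes to Tbx6 was 0.352, 0.473 and 2.15 in WT, 0.42, 0.885 and 1.88 in CdxKO, with 11.6, 11.5 and 36.3 in T/BraKO. Neither ratio in T/BraKO overlapped the other groups. Both are made of the levels given above, T being the mutated gene, so this is a description and no separate result. The ratio of T to Tbx6 overlapped between the groups but was higher in T/BraKO than in WT and CdxKO within each number. It was 32.5, 58.4 and 113 in WT, 39.5, 78.2 and 135 in CdxKO, with 83.6, 91.8 and 179 in T/BraKO. In all 3 genotypes library 1 had the lowest and library 3 the highest T to Tbx6 ratio.

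**Figure D3:**
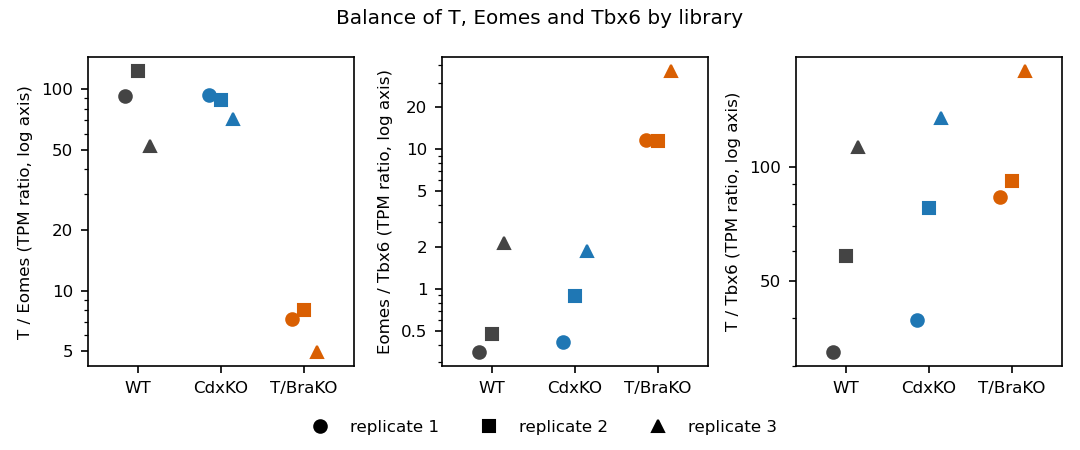
Ratios of TPM within each library (y axes, log scale) for T over Eomes, Eomes over Tbx6 and T over Tbx6, by genotype (x axis). Each point is 1 library and its shape is the replicate number. T/BraKO stands apart in the first and second panels, at 4.93 to 7.99 and 11.5 to 36.3, and in the third it overlaps the other groups while lying above both within each replicate number.

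The comparison of CdxKO with WT asks which T-box genes were at other levels in the CdxKO line. In CdxKO libraries Cdx4 averaged 0.0733 TPM against 5.39 in WT, Cdx2 averaged 34.5 against 141 and Cdx1 11.3 against 22.3. None of the 9 T-box genes was called by DESeq2, where 0.693% of all genes tested were, and 1 reached 0.05 before adjustment. With the block the count was again 0 of the 6 members with an adjusted p, where 5.31% of all genes tested were called, and 0 reached 0.05 before adjustment. edgeR also called 0 both without and with the block, where it called 0.11% and 4.56% of all genes, and 1 member reached 0.05 before adjustment in each.

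T was at 13928, 6285 and 19806 normalised counts in CdxKO. Libraries 1 and 3 were above and library 2 below the WT library of the same number, with ratios of 1.28, 0.568 and 1.34. The log2 fold change was 0.12 with a 95% interval from -0.54 to 0.79 (DESeq2 adjusted p = 1). Tbx6 showed the same arrangement, at 293, 67 and 122 normalised counts and ratios of 1.05, 0.425 and 1.12. Its log2 fold change was -0.18, with an interval from -1.19 to 0.82 that is wide in both directions. Eomes was at 273, 131 and 511 normalised counts, with ratios of 1.25, 0.794 and 0.982 to the WT library of the same number. Its log2 fold change was 0.02 (-1.30 to 1.33), and with the block 0.01 with the narrower interval of -0.34 to 0.35 (DESeq2 adjusted p = 0.992). CdxKO library 2 was the lowest of its group for T, Tbx6 and Eomes, and without it the estimate for T was 0.46, the highest among the fits that left out 1 library.

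Tbx20 (chr9:24718138-24774303, minus strand), a regulator of cardiac development, was the gene that reached 0.05 in the unblocked DESeq2 fit. It was at 18, 16.4 and 18.6 normalised counts in WT, 33.9, 39.3 and 29.2 in CdxKO, with 17.7, 13.7 and 13.5 in T/BraKO. Every CdxKO library was above every WT and T/BraKO library. The log2 fold change against WT was 0.95 (SE 0.38, 95% interval 0.19 to 1.70), which did not pass the adjustment over all genes (DESeq2 adjusted p = 0.554, and 0.333 with the block). Groups that do not overlap, with CdxKO higher, were found for 5.26% of all genes tested. The summed lateral and extraembryonic mesoderm markers, 3 of 6 of them at a mean of at least 1 TPM in each group, were also highest in CdxKO, at 21.8 to 25.7 TPM against 15.2 to 19.5 in WT. Within this list Hand1 (1.36 to 7.38 TPM from WT to CdxKO) and Bmp4 (6.4 to 9.55) were higher, Kdr (7.49 to 5.31) was lower and Gata6 was at 0.943 and 0.92. In T/BraKO the sum, at 8.15 to 13.2 TPM, was below WT, whereas the Tbx20 levels of T/BraKO and WT overlapped. Their part in the level of Tbx20 was not tested. The cardiac markers, 2 of 5 of them at a mean of at least 1 TPM in each group, summed to 5.86 to 10.9, 5.41 to 10.7 and 5.29 to 8.39 TPM, ranges that overlapped.

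Tbx3 (chr5:119670669-119684724, plus strand) and Tbx4 (chr11:85886422-85916097, plus strand) kept the same order of replicate numbers in all 3 genotypes, and neither was called in any comparison. Tbx3 was at 36, 56.1 and 19.6 normalised counts in WT, 38.9, 76.8 and 31 in CdxKO, with 37.5, 103 and 26 in T/BraKO. Library 2 was the highest and library 3 the lowest in each genotype. Tbx4 was at 18, 41.6 and 22.4 normalised counts in WT, 15, 35.7 and 25.4 in CdxKO, with 9.93, 31.1 and 23.3 in T/BraKO, with library 2 again the highest and library 1 the lowest. The highest library was 2.47 to 3.94 times the lowest for Tbx3 and 2.31 to 3.14 times for Tbx4. Against WT, the log2 fold changes of Tbx3 were 0.40 in CdxKO (95% interval -0.79 to 1.59) and 0.57 in T/BraKO (-0.61 to 1.76). Those of Tbx4 were -0.10 (-1.19 to 1.00) and -0.34 (-1.44 to 0.76), and none passed the DESeq2 test. The summed naive pluripotency markers, a list that holds Tbx3 itself, were also highest in library 2 of each genotype, at 40.2, 43.4 and 38.3 TPM in WT, CdxKO and T/BraKO. So were the summed fibroblast markers, at 124, 152 and 96.5 TPM, although the single markers differed. Acta2, at 54.5, 65.9 and 45.7 TPM in library 2, and Pdgfrb were highest there in each genotype. Col3a1 was highest in library 1 of each, at 4.77, 3.48 and 3.88 TPM, and Col1a2 in library 1 of WT and T/BraKO. The part of either list in the levels of Tbx3 and Tbx4 was not tested. T and Eomes, by contrast, were highest in library 3 of each genotype.

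Tbx2, Tbx1 and Tbx5 averaged 5.37, 3.46 and 2.43 normalised counts over the 9 libraries. Tbx5 did not exceed 4 counts in any library and did not pass the detection rule. No fold change is given for these 3 genes, since a difference was not detectable at this depth.

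The direct comparison of the mutants, which shares its libraries with the comparisons above, called T and Tbx6 higher in CdxKO than in T/BraKO, 2 of 9 members where 2.52% of all genes tested were called higher and 3.48% in either direction. The log2 difference was 2.54 for T (DESeq2 adjusted p = 2.52e-11) and 3.23 for Tbx6 (adjusted p = 5.31e-07), and in both genes the lowest CdxKO library was above the highest T/BraKO library, as for 8.17% of all genes tested. edgeR called the same pair without the block, where it called 1.63% of all genes. Eomes was lower in CdxKO by ratios of 0.601, 0.257 and 0.471 within the replicate numbers. Its log2 difference was -1.16 without the block (DESeq2 adjusted p = 0.574) and -1.25 with it (adjusted p = 2.06e-11), where 14.6% of all genes tested were called. Without CdxKO library 3 the unblocked difference was -1.76, with an adjusted p of 0.0366. The other 8 leave-out fits did not call it, down to -0.66 without T/BraKO library 3 (adjusted p = 1). Tbx20 was higher in CdxKO by ratios of 1.92, 2.86 and 2.17, a log2 difference of 1.20 (SE 0.39, DESeq2 adjusted p = 0.0599, and 0.081 with the block). edgeR with the block put its adjusted p at 0.012, where it called 18.7% of all genes, and of the 4 fits (each tool with and without the block) this alone called Tbx20.

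Of the 8 other genes of the T-box family, 4 were detected. Mga, which encodes a T-box protein that also binds MAX and is widely expressed, averaged 6024 normalised counts, and Tbx15, Tbx21 and Tbx18 averaged 20.5, 12.7 and 3.53. Mga was at 6333 ± 722 in WT, 5532 ± 278 in CdxKO, with 6208 ± 660 in T/BraKO (SD, n = 3). DESeq2 called none of the 8 in the 3 comparisons, and 0 reached 0.05 before adjustment. An adjusted p was given for 6 of the 8 in CdxKO against WT, 7 in T/BraKO against WT and 5 between the mutants. With the block it was given for only 2, 1 and 3 of them, and none of these was called, with 1, 0 and 1 reaching 0.05 before adjustment.

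The genes around the T-box factors were read from 4 lists. The first held 20 genes that T or TBX6 is known to control or that mark presomitic mesoderm, the unsegmented paraxial mesoderm. In T/BraKO against WT, 5 of the 20 were lower and 2 higher by DESeq2, where 1.08% of all genes tested were called in either direction. The median log2 fold change of the list was -0.56, against 0.00 over all genes tested. With the block, 7 were lower and 2 higher of the 15 with an adjusted p, where 9.68% of all genes tested were called, with a median of -0.39 against 0.02. Msgn1, a presomitic transcription factor, was at 219, 128 and 114 normalised counts in WT and at 3.31, 1.83 and 4.48 in T/BraKO, close to the detection limit (log2 fold change -5.58, adjusted p = 8.59e-12). Rspo3, which amplifies WNT signalling, was at 1819, 890 and 963 in WT and at 355, 193 and 399 in T/BraKO (-1.95, adjusted p = 0.00108). Dll1, a Notch ligand, was at 833, 844 and 658 in WT and at 459, 323 and 348 in T/BraKO (-1.05, adjusted p = 0.0015). Fgf8, a growth factor of the streak, was at 857, 642 and 677 in WT and at 195, 233 and 309 in T/BraKO (-1.56, adjusted p = 5.01e-07).

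In each of these 4 genes the groups did not overlap, as for 5.54% of all genes tested in that direction. The 2 that rose, Fgf17 and Pcdh8, were named although outside the 4 smallest adjusted p values, after their values were seen. Fgf17, another growth factor, went from 242 ± 44.7 to 414 ± 51.3, and Pcdh8, a protocadherin of paraxial mesoderm, went from 165 ± 17.9 to 437 ± 182 (SD, n = 3). In CdxKO against WT, 2 of the 20 were lower by DESeq2, the WNT ligand genes Wnt3a (-1.42, adjusted p = 0.00046) and Wnt8a (-0.77, adjusted p = 0.00511), and none was higher, where 0.693% of all genes tested were called. The median was 0.18, against -0.00 over all genes tested. With the block, 4 were lower, the added ones being Hes7, an oscillating gene of the segmentation clock (-0.90, adjusted p = 0.000404), and Fgf8 (-0.65, adjusted p = 0.00401), where 5.31% of all genes tested were called. Wnt3a and Hes7 were lower in T/BraKO as well, Wnt3a as the fifth gene called lower there (-1.18, adjusted p = 0.00726) and Hes7 with the block (-0.90, adjusted p = 0.000287). Hes7 was at 331, 54.2 and 280 normalised counts in WT, 182, 30.4 and 141 in CdxKO, with 168, 31.1 and 152 in T/BraKO. Its WT levels overlapped those of each mutant, and it was called only with the block. Between the mutants, 19 of the 20 had an adjusted p by DESeq2, and 3.48% of all genes tested were called in either direction. Of the 19, 4 were higher in CdxKO, Msgn1, Dll1, Fgf8 and Rspo3, and 2 were lower, Wnt8a and Fgf17. The median was 0.61 against -0.01 over all genes tested.

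**Figure D4:**
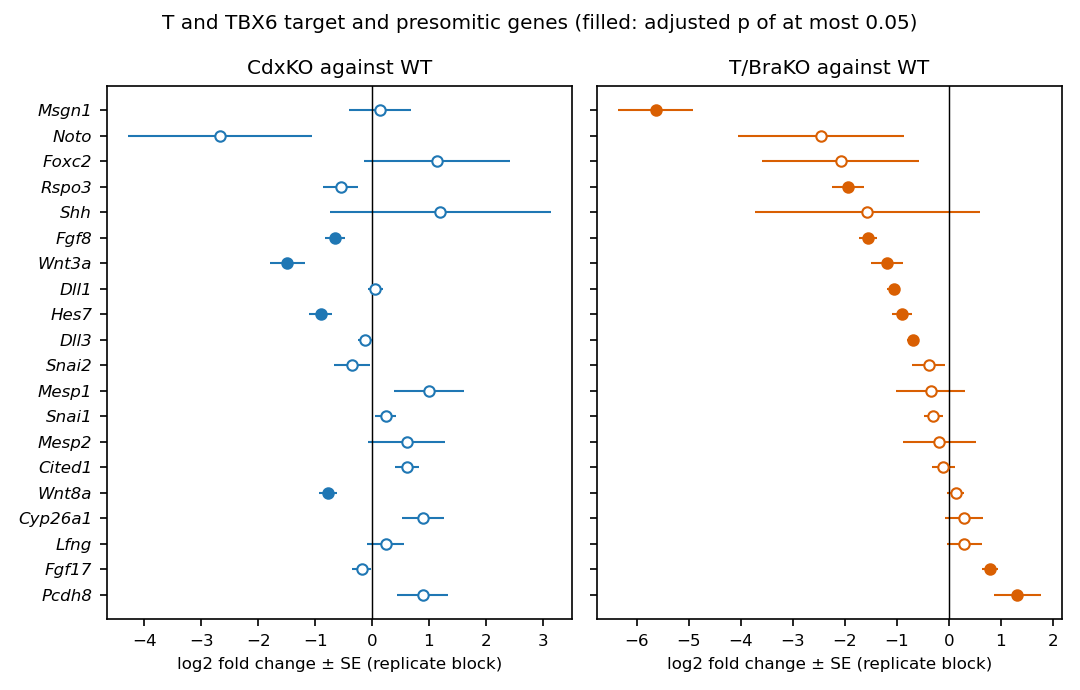
Log2 fold change with its SE (x axes, which differ in range) from the DESeq2 fit with the replicate block, for the 20 T and TBX6 target and presomitic genes (y axis, ordered by the T/BraKO value). Left, CdxKO against WT; right, T/BraKO against WT; filled points had an adjusted p of at most 0.05. Msgn1 lies at -5.64 in T/BraKO, and 4 points are filled on the left and 9 on the right.

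The second list held 15 genes that EOMES is known to control or that mark mesendoderm, the common precursor of anterior mesoderm and endoderm. DESeq2 called none of the 15 in T/BraKO against WT, with 1 reaching 0.05 before adjustment, and none in CdxKO against WT, with 0 at that level. With the block, 3 were lower in T/BraKO of the 11 with an adjusted p, where 9.68% of all genes tested were called, none was higher, and the median was -0.32 against 0.02 over all genes tested. Cdh2, the mesenchymal cadherin, was at 7999, 4208 and 6489 normalised counts in WT and 5991, 3538 and 5260 in T/BraKO (-0.32, blocked adjusted p = 2.15e-05). Pdgfra, a receptor of early mesoderm, was at 359, 191 and 123 in WT and 132, 128 and 95.1 in T/BraKO (-0.79, blocked adjusted p = 0.00895). Foxa2, a regulator of endoderm and node, was at 128, 220 and 348 in WT and 55.2, 46.7 and 215 in T/BraKO (-1.40, blocked adjusted p = 0.0187). For these 3 genes the groups overlapped and the T/BraKO library was the lower one within each number, whereas Eomes was the higher one. The definitive endoderm markers summed to 13.8 to 23.9 TPM in WT, a range that overlapped the 8.27 to 18.2 TPM of T/BraKO, but within each number the T/BraKO library was lower (17 and 12.8, 13.8 and 8.27, 23.9 and 18.2). That sum holds Foxa2 itself, at a mean of 7.84 TPM in WT and 3.56 in T/BraKO. In number 2 Foxa2 alone fell by more than the sum, from 7.57 to 1.61 TPM. Of the other markers, Hhex (7.27 to 6.4), Cer1 (1.63 to 1.49) and Foxa1 (0.523 to 0.283) had lower means in T/BraKO. Sox17 (0.377 to 0.57) and Gata4 (0.63 to 0.793) had higher ones. Between the mutants DESeq2 called none, with 2 reaching 0.05 before adjustment, and with the block the same 3 genes were higher in CdxKO, where 14.6% of all genes tested were called.

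The third list held 13 partners and repressors of T-box factors. With the block, 2 of the 10 with an adjusted p were higher in T/BraKO than in WT, where 9.68% of all genes tested were called in either direction. The 2 were the Groucho family corepressors Tle3 (0.36, adjusted p = 4.22e-07) and Tle1 (0.33, adjusted p = 0.00146). Tle3 was at 4622, 3913 and 4457 normalised counts in WT and 6099, 5181 and 5389 in T/BraKO. Without the block none was called by DESeq2 in this comparison, with 2 reaching 0.05 before adjustment. In CdxKO against WT none was called without or with the block, with 0 and 2 at that level. Between the mutants DESeq2 without the block called 1 of the 12 with an adjusted p, where 3.48% of all genes tested were called. It was Tle3, lower in CdxKO (-0.41, adjusted p = 0.0155).

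The fourth list held 15 cardiac and limb genes that act with TBX1, TBX2, TBX3, TBX4, TBX5 or TBX20. In CdxKO against WT, DESeq2 called 1 higher and 1 lower of the 13 with an adjusted p, where 0.693% of all genes tested were called. Hand1, a regulator of lateral and extraembryonic mesoderm and of the heart, was at 31.5, 47.4 and 28 normalised counts in WT and at 188, 223 and 170 in CdxKO (2.44, adjusted p = 2.58e-14), and it also belongs to the lateral mesoderm markers given beside Tbx20. Msx1, a target of BMP signalling, was at 324, 98.7 and 146 in WT and at 61.4, 44.6 and 45.1 in CdxKO (-1.91, adjusted p = 0.038). In T/BraKO against WT 1 of the 15 was called, where 1.08% of all genes tested were. It was Isl1, which marks cardiac and hindlimb progenitors, at 56.3, 44.5 and 51.3 in WT and 3.31, 3.66 and 9.87 in T/BraKO (-3.15, adjusted p = 2.45e-06). With the block, where 5.31% and 9.68% of all genes tested were called in these comparisons, Bmp4, a BMP ligand gene, was also called, higher in CdxKO (0.59, adjusted p = 0.024) and lower in T/BraKO (-0.55, adjusted p = 0.0395). The Bmp4 levels of WT overlapped those of each mutant. Between the mutants Hand1, Isl1 and Bmp4 were higher and Msx1 lower in CdxKO without the block, among 13 with an adjusted p. In that fit 3.48% of all genes tested were called in either direction.

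The genes whose pattern over the 9 libraries was most like that of a T-box gene were found by Pearson's r of log2 normalised counts among 12315 genes with a mean of at least 50. The points share the split by genotype and the replicate numbers, and r is given as a description. For Tbx6 they were Rftn1 (0.986), Hadhb (0.981), Aplnr (0.977), Slc44a5 (0.976) and Limch1 (0.971). Aplnr, the apelin receptor gene, followed Tbx6 down to the low CdxKO library, at 1669, 1186 and 916 normalised counts in WT, 2090, 488 and 1425 in CdxKO, with 260, 168 and 118 in T/BraKO. For T they were Pde4d (0.983), Crot (0.977), Ripk3 (0.973), Ppp1r14c (0.971) and Stk39 (0.970). For Eomes they were Ctbp2 (0.995), Azin1 (0.987), Tra2a (0.986), Rsl24d1 (0.984) and Isg20l2 (0.983). Ctbp2, a corepressor gene, ran over a much narrower span than Eomes, from 8991 to 15557 normalised counts. For Tbx3 they were Sbno2 (0.982), Tpm2 (0.979), Fam76a (0.977), Arl4c (0.974) and Relb (0.971). Among the T-box genes themselves r was 0.89 between T and Tbx6, -0.36 between T and Eomes, -0.61 between Tbx6 and Eomes and 0.47 between Tbx3 and Tbx4.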

How the data were processed

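Poly(A) RNA was sequenced as single-end 76-base reads from 9 libraries. Per the study's methods and processing notes, the authors trimmed reads with cutadapt 1.16, aligned them with STAR 2.5.2a to mm10 and estimated strand-specific expected counts and TPM per RefSeq gene with RSEM 1.3.0; DESeq2 1.16.1 was their test. The expected counts, as deposited, were made whole by rounding, and the deposited TPM values were used only to compare levels between genes. Genotype was fitted to all 9 libraries with DESeq2 1.42.0 (R 4.3.3), and normalised counts are counts divided by its size factors. A gene was called at a Benjamini-Hochberg adjusted p of at most 0.05 over all genes tested, of either direction, by the two-sided Wald test. edgeR 4.0.16 was the second tool. Confidence intervals are 95% Wald intervals, and floors of 3 counts cover counting error only. Rn45s, a ribosomal RNA gene, took 0.343% to 4.21% of the counts.

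The labels call the libraries biological replicates but name no separate cultures, so p-values measure the spread between these libraries. Deviations from the group mean correlated by 0.532 to 0.814 between same-numbered libraries of different genotypes (9 pairs, 12316 genes), so the numbers were taken to pair the samples. Between differently numbered libraries of different genotypes (18 pairs) the average was -0.34. That value follows from the first once group means are taken off, and is no further evidence of pairing. Replicates of a group differed beyond counting noise. The members and the gene lists were chosen with earlier results of these data known. From each list the genes called were named, at most 4 per comparison by smallest adjusted p, and for likeness the 5 with the highest r. Gene positions are from GENCODE on GRCm38, the assembly of mm10. The tests were checked on simulated counts. Members under a mean of 10 normalised counts got no fold change. No member had a fractional count in any library, and counting by strand separates them from antisense neighbours.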

Additional observations from a re-analysis of the deposited data

How the results depend on the processing

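With the replicate block, DESeq2 called 736 genes in CdxKO against WT, 1237 in T/BraKO against WT and 2187 between the mutants, against 116, 205 and 558 without it. edgeR called 16, 56 and 237 genes, and 663, 1382 and 2724 with the replicate block. Among the T-box genes the block added the call for Eomes in T/BraKO against WT and between the mutants under DESeq2 and changed no other DESeq2 call. edgeR called 1 member in T/BraKO against WT (T), and with the block 4 between the mutants (T, Tbx6, Tbx20 and Eomes). Scaling by TMM, a low-count filter (10 counts, 3 libraries) and fits of the 6 libraries compared changed no member's call. Leaving out each library in turn gave 59 to 140 genes in CdxKO against WT (59 without WT replicate 1, 65 without CdxKO replicate 1), 118 to 214 in T/BraKO against WT (118 without WT replicate 1, 127 without WT replicate 2) and 370 to 630 between the mutants (370 without T/BraKO replicate 1). Members called ranged from 0 to 0, 2 to 3 and 2 to 3. In those fits the log2 fold change in T/BraKO against WT stayed between -2.62 and -2.26 for T and between -3.68 and -2.96 for Tbx6, while Eomes ran from 0.68 to 1.83, and from -1.76 to -0.66 between the mutants. Uncalled values changed sign in 15 fits, all of them with a library left out. Against WT, CdxKO values ran from -0.28 to 0.46 for T, -0.94 to 0.27 for Tbx6, -0.58 to 0.67 for Eomes, -0.09 to 0.82 for Tbx3 and -0.42 to 0.34 for Tbx4. In T/BraKO they ran from -0.24 to 1.00 for Tbx3 and -0.71 to 0.10 for Tbx4, and between the mutants from -0.67 to 0.63 and from -0.09 to 0.61. At this depth Tbx1, Tbx2 and Tbx5 were too low for a difference to be shown.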
